A study of Rattus norvegicus with 20 samples.

Results

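Anxa1 and A2m are 2 of the 750 endogenous genes counted on a probe panel in the brains of female rats after controlled cortical impact, in which a rod strikes the cortex through an opened skull to model traumatic brain injury. They were chosen because their counts stood out between the injured and the opposite hemisphere of these same brains, where they held places 2 and 4 among the tested genes by fitted increase. The size of that increase is therefore given as a description, with no test. Each of 10 rats gave 1 sample from the ipsilateral (injured) hemisphere and 1 from the contralateral hemisphere, so the 20 libraries form 10 pairs, numbered by animal as 2 to 8 and 10 to 12. All animals had the impact, and each was given, through the nose, either vehicle or L-myc immortalised neural stem cells of human origin. The labels do not give which animal received which, nor the strain, the age or the time after injury. The contralateral hemisphere is thus the opposite side of an injured and possibly treated brain, not an uninjured animal.

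Annexin A1 is a calcium-dependent phospholipid-binding protein of leukocytes and other cells that is induced by glucocorticoids. Released annexin A1 acts on formyl peptide receptors, limits the recruitment of neutrophils and promotes their clearance, and is counted among the mediators of the resolution of inflammation. Alpha-2-macroglobulin is a large secreted inhibitor that traps proteases of all classes after they cut its bait region. It also binds cytokines and growth factors, is cleared by the receptor LRP1, and in the rat is a classic acute-phase protein whose gene is induced by interleukin-6 through STAT3. In the rat genome (build GRCr8) RefSeq places Anxa1 at chr1:227287713-227306739 and A2m at chr4:156570163-156619870.

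Of both genes, Anxa1 is in RefSeq's promoter table for GRCr8, and its sequence is shown so that the elements searched for can be read in place. The 250 bases before the annotated start (chr1:227303733-227303982, minus strand, inside the span of the gene) are printed 5′ to 3′ with a match to the TATA box letters TATAAA in capitals.
Anxa1: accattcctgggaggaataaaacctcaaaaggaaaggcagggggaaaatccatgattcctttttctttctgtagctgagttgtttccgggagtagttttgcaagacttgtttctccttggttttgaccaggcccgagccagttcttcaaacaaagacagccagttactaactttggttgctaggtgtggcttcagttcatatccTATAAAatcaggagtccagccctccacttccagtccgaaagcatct
The TATAAA match begins 46 bases before the start, and 12.9% of 33469 rat promoter windows of this length hold it on either strand. Also searched on both strands were CCAAT, the STAT patterns TTCNNNGAA and TTCNNGAA, the AP-1 pattern TGANTCA and the glucocorticoid receptor half-site AGAACA, each with 0 matches in this window. They occur in 34.0%, 7.67%, 7.48%, 6.34% and 17.5% of all windows in that order.

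The nCounter assay counts barcoded probes bound to RNA singly and without amplification. Total counts over 770 probes ranged from 38015 to 150613 ipsilaterally and from 34454 to 319964 contralaterally, and raw counts were divided by a factor from 17 housekeeping genes (0.289 to 1.37 ipsilaterally, 0.444 to 4.27 contralaterally). Of the accessions given for these 770 probes, 0 are among the rat RefSeq transcripts, and symbols such as G6pdx and the 15 that begin with H2- are mouse spellings. Of the symbols, 705 are also rat RefSeq symbols. The panel thus looks like a mouse design read with rat RNA, but its probe sequences were not examined. A probe at background does not show that its transcript is missing, and levels of different probes cannot be compared. Whether the A2m probe also binds related rat macroglobulins was not tested. Ipsilateral libraries were run as one numbered set and contralateral libraries as another, so set and hemisphere cannot be told apart. The geometric mean of the positive control probes ran from 544 to 715 in the ipsilateral set and from 342 to 540 in the contralateral set.

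Anxa1 varied over a wide range among the injured hemispheres. In ipsilateral libraries it had 402 scaled counts in animal 8, 382 in animal 6 and 354 in animal 7, then 238 in animal 11 and 234 in animal 4. It had 152 in animal 2 and 107 in animal 12, and 35.8, 27.6 and 17.8 scaled counts in animals 10, 3 and 5. Animals 10, 3 and 5 thus lay in the range of the contralateral libraries, and the other 7 lay above every contralateral library. In contralateral libraries Anxa1 had 49.0 scaled counts in animal 4, 33.9 in animal 11, 31.1 in animal 3 and 27.4 in animal 12. The remaining contralateral libraries had 21.9 (animal 2), 20.2 (animal 8), 17.8 (animal 7), 15.8 (animal 10), 14.0 (animal 6) and 13.2 scaled counts (animal 5). The groups overlapped, and the mean was 195 ± 149 ipsilaterally against 24.4 ± 11.2 scaled counts contralaterally (SD, n = 10 each).

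A2m showed a still wider spread on the injured side and a narrow one opposite. In ipsilateral libraries it had 826 scaled counts in animal 7, 528 in animal 11, 444 in animal 6, 294 in animal 8 and 288 in animal 12. It had 151 in animal 4 and 106 in animal 2, and 36.5, 34.1 and 24.3 scaled counts in animals 10, 3 and 5, the same 3 animals that were lowest for Anxa1. In contralateral libraries A2m ran from 23.7 scaled counts in animal 3 to 44.6 in animal 4, with a median of 33.9. The other contralateral values were 43.4 (animal 6), 40.3 (animal 12), 35.7 (animal 8), 35.0 (animal 5), 32.7 (animal 11), 30.3 (animal 2), 27.0 (animal 10) and 26.7 (animal 7). Again 7 ipsilateral libraries exceeded every contralateral one, while those of animals 10, 3 and 5 lay within the contralateral range. The mean was 273 ± 262 ipsilaterally against 33.9 ± 7.2 scaled counts contralaterally (SD, n = 10 each).

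**Figure D1:**
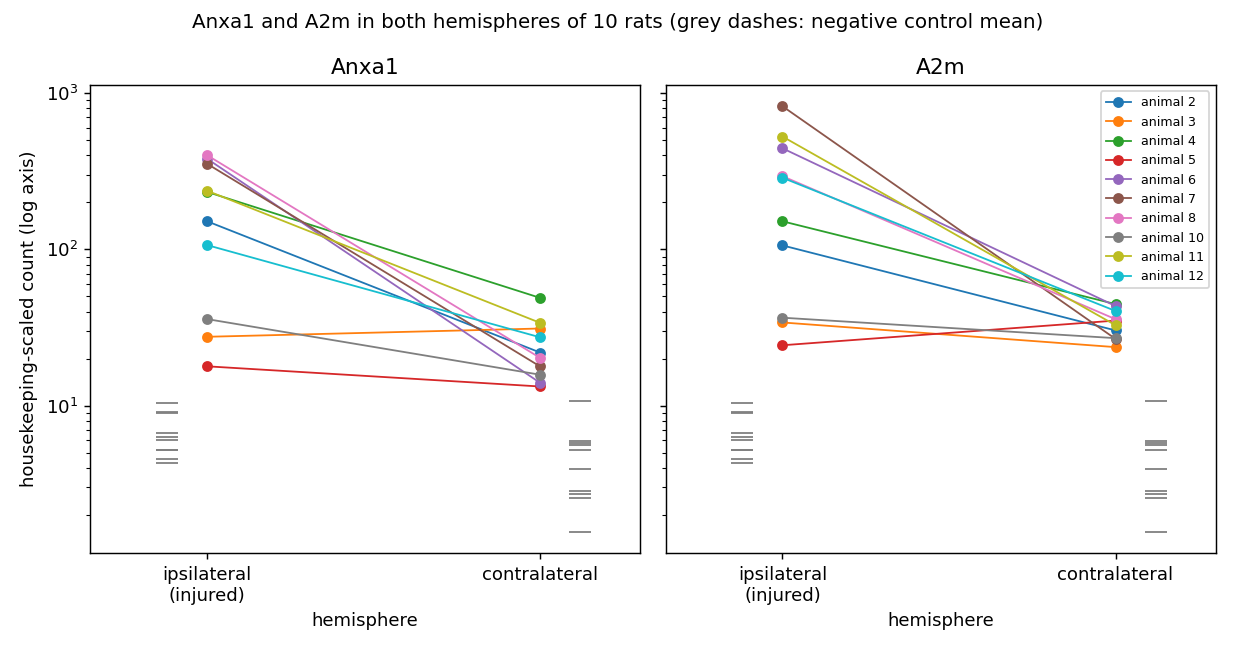
Housekeeping-scaled counts (log axis) of Anxa1 and A2m in the ipsilateral and the contralateral hemisphere of each of 10 rats, joined by a line per animal, with grey dashes for the mean of the negative control probes of each library after the same scaling. In both genes 7 ipsilateral libraries lie above all contralateral ones, and animals 3, 5 and 10 stay low on both sides.

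Most values lay above the background of the assay. The raw count of Anxa1 exceeded the highest of the 8 negative control probes of its own library in 9 of 10 ipsilateral and 8 of 10 contralateral libraries. The exceptions were 11 counts against a highest control of 11 in ipsilateral animal 5, and contralaterally 10 against 10 in animal 6 and 7 against 8 in animal 10. A2m exceeded it in 10 of 10 ipsilateral and 10 of 10 contralateral libraries, with a lowest raw count of 15 ipsilaterally and 12 contralaterally. Among the ipsilateral libraries the coefficient of variation was 76.6% for Anxa1, where counting error alone would give 13.5%. For A2m it was 95.9% against 12.2% from counting. Among the contralateral libraries it was 45.7% for Anxa1 against 22.9% from counting, and 21.3% for A2m against 18.0%. From lowest to highest, the contralateral level spanned 3.69-fold for Anxa1 and 1.89-fold for A2m. By the SD of log2 values, A2m and Anxa1 ranked 2 and 3 of the 193 tested genes ipsilaterally, and 67 and 9 contralaterally.

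Within animals, Anxa1 was 27.3-fold higher ipsilaterally in animal 6, 19.9-fold in animals 7 and 8, 7.02-fold in animal 11, 6.93-fold in animal 2, 4.77-fold in animal 4 and 3.90-fold in animal 12. It stood at 2.27 times the contralateral level in animal 10, 1.35 times in animal 5 and 0.885 times in animal 3. The ratios of Anxa1 in animals 6, 10 and 5 each have a count at or under the highest negative control on one side, so their sizes are not exact. A2m was 30.9-fold higher in animal 7, 16.2-fold in animal 11, 10.2-fold in animal 6, 8.24-fold in animal 8, 7.13-fold in animal 12, 3.51-fold in animal 2 and 3.39-fold in animal 4. It stood at 1.44 times in animal 3, 1.35 times in animal 10 and 0.695 times in animal 5. Each gene was thus higher ipsilaterally in 9 of 10 animals, with a different exception, animal 3 for Anxa1 and animal 5 for A2m. In raw counts each gene was also higher in 9 of 10 animals, but there animal 5 was the exception for both. The direction of Anxa1 in animals 3 and 5 rests on the scaling, as the raw counts were 34 against 25 in animal 3 and 11 against 14 in animal 5. Of all tested genes, 30.1% were higher ipsilaterally in at least 9 of 10 animals.

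The mean paired difference was 2.42 ± 1.66 for Anxa1 and 2.19 ± 1.71 for A2m on the log2 (scaled count + 1) scale (SD, n = 10 animals). The fitted log2 fold changes were 2.68 ± 0.46 and 2.44 ± 0.49 (SE), as computed by edgeR with the animal as a block. Both genes passed the threshold of that fit, which 57.5% of all tested genes passed in either direction and 47.2% toward higher values, but as the genes were chosen on this contrast nothing is read from it. In the order of fitted increase, Cd68 (2.65 ± 0.37 SE) stood between the pair and Col3a1 (2.39 ± 0.52 SE) just after it. With each of the 17 housekeeping genes used alone for scaling, a choice made after seeing the data, the mean paired difference ran from 1.40 to 2.85 for Anxa1 and from 1.17 to 2.63 for A2m. The lowest value came with Gusb and the highest with Oaz1 in both. Without animals 7 and 8, whose factors differed most between hemispheres (1.13 against 4.27 and 0.289 against 2.13), the values were 1.96 ± 1.53 for Anxa1 and 1.76 ± 1.56 for A2m (SD, n = 8 animals). In bulk tissue, more cells that carry a transcript and more RNA per cell cannot be told apart.

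**Figure D2:**
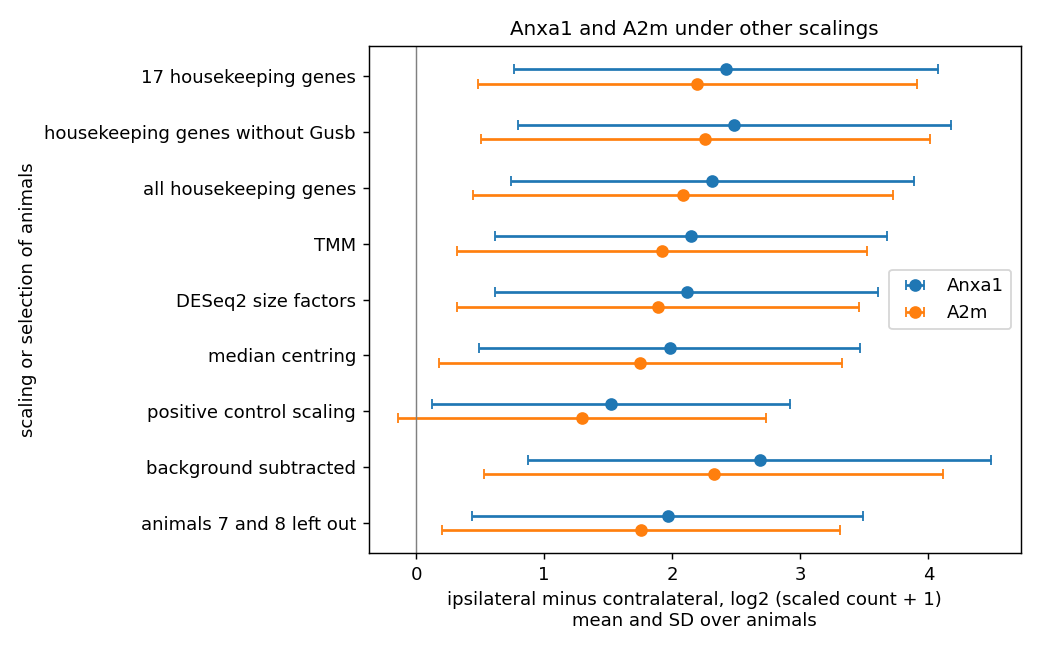
Mean hemisphere difference (ipsilateral minus contralateral, log2 of scaled count + 1) of Anxa1 and A2m with bars of 1 SD over animals, for 7 scalings, for background subtraction and without animals 7 and 8. The means stay above 0 throughout, from 1.52 to 2.68 for Anxa1 and from 1.29 to 2.32 for A2m, and the bar of A2m crosses 0 with positive control scaling.

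Over the 10 animals the hemisphere differences of the pair had a Pearson's r of 0.84 and a Spearman's rho of 0.83, given as a description because they fell into 4 clusters of at most 3 animals. The difference of A2m exceeded that of Anxa1 in 4 of 10 animals, by 1.2 in animal 11, 0.88 in animal 12, 0.68 in animal 3 and 0.66 in animal 7 on the log2 scale. It was smaller in the other 6, among them animal 8 (-1.24) and animal 6 (-1.35, with contralateral Anxa1 at background). This contrast does not depend on the scaling factors beyond the pseudocount, and its mean of -0.22 was smaller than its SD of 0.97 (n = 10 animals). Within the ipsilateral libraries both genes left a gap of 1.55 (Anxa1) and 1.51 (A2m) log2 units between animals 10, 3 and 5 and the others, so a correlation was computed within the 7 others only. There Pearson's r was 0.51 (exact permutation p = 0.248, adjusted p = 0.495 over 2 correlations) and Spearman's rho 0.57 (exact permutation p = 0.20, adjusted p = 0.40). Without animals 8 and 12, the farthest from the median of Anxa1, Pearson's r was 0.81 (n = 5). Contralaterally Pearson's r was 0.15 (n = 10, permutation p = 0.685, adjusted p = 0.685) and Spearman's rho 0.08 (permutation p = 0.832, adjusted p = 0.832). It was -0.32 without animals 4 and 11 (n = 8).

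**Figure D3:**
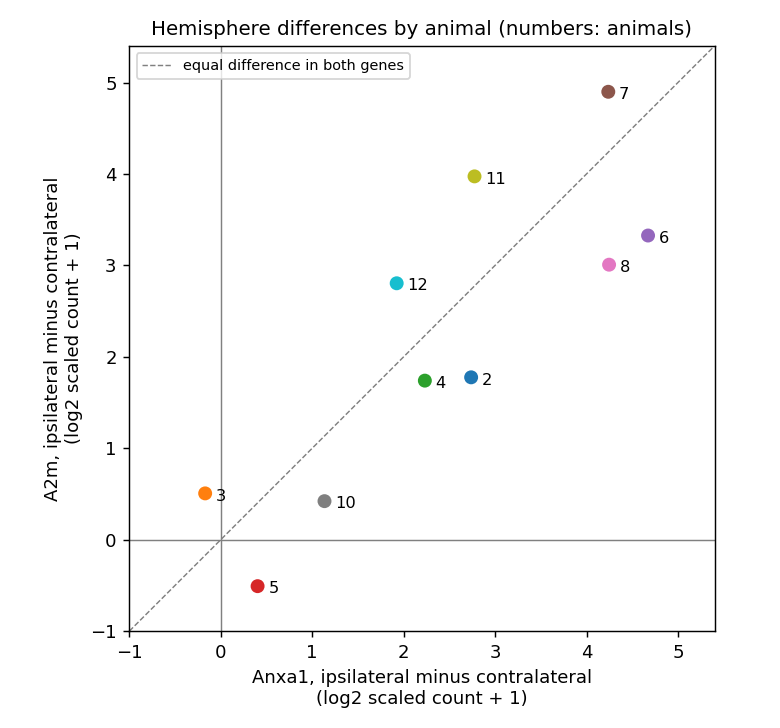
Hemisphere difference of A2m against that of Anxa1 (both ipsilateral minus contralateral, log2 of scaled count + 1) with 1 numbered point per animal and a dashed line of equal difference. Animals 11, 12, 3 and 7 lie above the line and animals 6 and 8 farthest below it, while animals 3, 5 and 10 lie near the origin.

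The hemisphere differences of many genes ran with those of both Anxa1 and A2m over the 10 animals. For Anxa1 the 6 highest included Ctsh (cathepsin H, a lysosomal protease, Pearson's r = 0.97) and Cd63 (a tetraspanin of lysosomes and exosomes, 0.95). Also among them were the chemokine Cxcl12 (0.94), the cystine transporter Slc7a11 (0.94) and the integrin subunit Itgb1 (0.94). For A2m they were Stat3 (a transcription factor of cytokine signalling, 0.95), Clu (the secreted chaperone clusterin, 0.93) and Rsad2 (the antiviral protein viperin, 0.92). The phagocyte protein Cd68 (0.91), the interleukin-13 receptor subunit Il13ra1 (0.91) and the cholesterol exporter Abca1 (0.90) followed. Those of A2m also ran with Anxa1, with r of 0.92 for Stat3, 0.91 for Abca1 and Il13ra1 and 0.88 for Clu. For Rsad2 and Cd68 it was 0.85 and 0.81. Ctsh and Cd63 had r of 0.87 and 0.88 with A2m, but Itgb1 had 0.75 and Slc7a11 and Cxcl12 0.70. The lists of 6 shared 0 genes by Pearson's r, but by Spearman's rho Stat3 and Mrc1 (a macrophage mannose receptor, named after its values were seen) held place 6 or better for both. A2m itself held place 32 of 192 for Anxa1, and Anxa1 held place 25 of 192 for A2m. The median over all 192 genes was 0.43 for Anxa1 and 0.36 for A2m, and 19 and 7 genes in that order reached 0.9. These values share libraries and scaling factors and rest on animals that fall into separate clusters. By Spearman's rho 3 of the 6 genes stayed among the highest 6 for Anxa1 and 3 for A2m, and with TMM scaling 4 and 5.

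At the other end, Cyfip2 (a regulator of actin at synapses, r = -0.90), Gpi1 (glucose phosphate isomerase, -0.88) and Egr1 (an activity-induced transcription factor, -0.87) ran most opposite to Anxa1. For A2m these were the cytokine Mif (-0.93), Egr1 (-0.90) and the proteasome subunit Psmb7 (-0.87). In animal 7, with the highest A2m difference, Stat3 stood at 1.34, Clu at 1.80 and Cd68 at 3.95 on the log2 scale, and Mif at -0.68. In animal 5, with the lowest, they stood at 0.08, 0.16, 0.45 and 0.20. Animal 6 had the highest Anxa1 difference (4.67, against a contralateral count at background), and there Ctsh stood at 2.05, Cd63 at 1.99 and Cyfip2 at -1.35. Animal 3 had the lowest, with Ctsh at -0.11, Cd63 at -0.10 and Cyfip2 at -0.03.

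**Figure D4:**
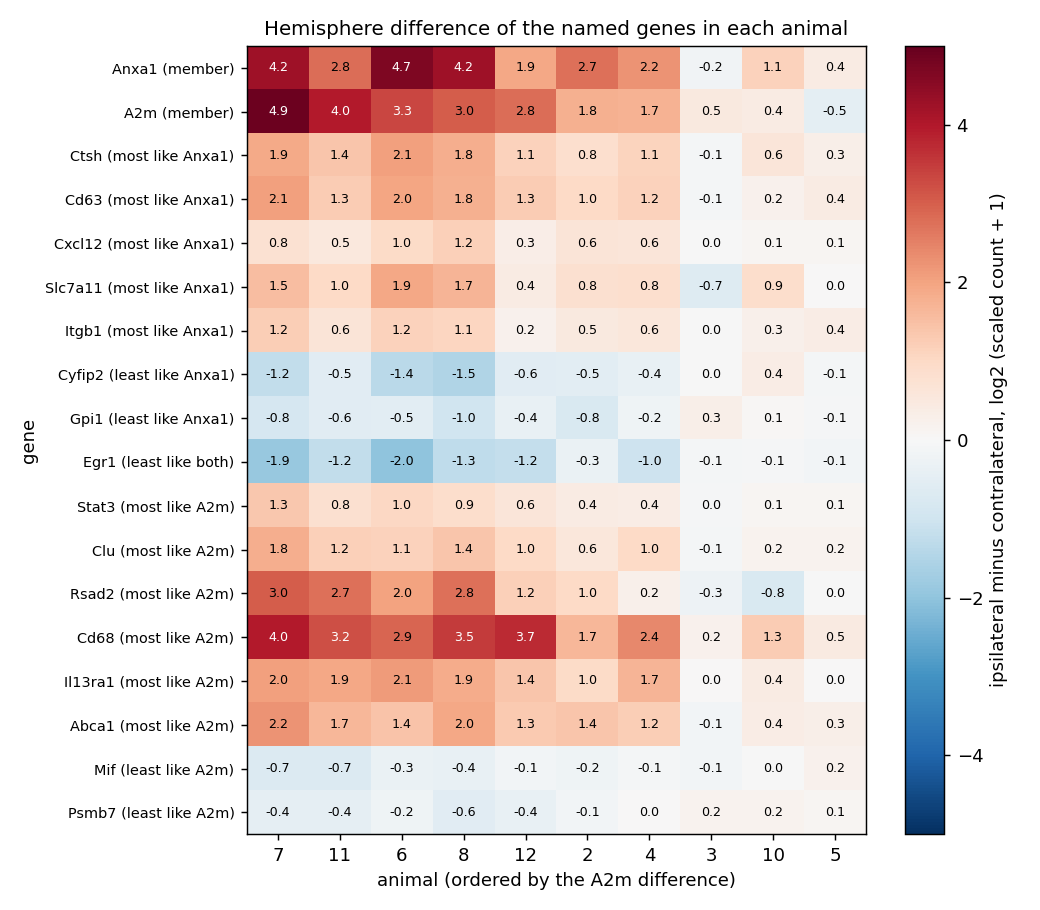
Hemisphere difference (ipsilateral minus contralateral, log2 of scaled count + 1, in colour and printed) of Anxa1, A2m and the named genes most and least like each, in 10 animals ordered by the A2m difference. Animals 3, 10 and 5 at the right are pale in nearly all genes, and Anxa1 peaks in animal 6 where A2m peaks in animal 7.

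Of the genes around both pathways, 40 of the 134 listed were on the panel and 12 reached the minimum mean count of 20. Of these 12, 7 rose and 1 fell ipsilaterally at edgeR adjusted p under 0.05, against 47.2% and 10.4% of all tested genes in these directions. Their median log2 fold change was 0.41, against 0.30 for all tested genes. With median centring 2 of them were called higher and 4 lower, and with DESeq2's size factors 4 and 3, so the direction within these lists leans on the scaling. On the side of annexin A1, the receptor Fpr2 averaged 2.25 raw counts, Cmklr1 5.2, S100a8 5.85 and S100b 2.40, all within the range of the negative controls, whose highest count was 18. No other annexin or S100 gene of the list was on the panel, nor was the glucocorticoid receptor Nr3c1. In the list of formyl peptide receptors, glucocorticoid and lipid mediator genes only Ptgs2, the inducible prostaglandin synthase, was tested. Its scaled count was 180 ± 58 ipsilaterally against 253 ± 61 contralaterally (SD, n = 10 each) and fell by 0.53 ± 0.15 (SE) on the log2 scale in 9 of 10 animals (edgeR adjusted p = 0.00918). Without animals 7 and 8 it stood at -0.42 (edgeR adjusted p = 0.0596).

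On the side of alpha-2-macroglobulin, C4b, a complement component of the same thioester protein family, had a scaled count of 568 ± 384 ipsilaterally against 116 ± 55 contralaterally (SD, n = 10 each). Its log2 fold change was 2.00 ± 0.30 (SE, 9 of 10 animals, edgeR adjusted p = 0.000786), and it lost its call only with positive control scaling (1.01, edgeR adjusted p = 0.143) among the alternatives run. The clearance receptor Lrp1 had 471 ± 60 against 405 ± 30 scaled counts and a log2 fold change of 0.21 ± 0.08 (SE, edgeR adjusted p = 0.0316) that turned negative with TMM, DESeq2's size factors, median centring and positive control scaling. With median centring Lrp1 was called lower (-0.24, edgeR adjusted p = 0.0191). Its call was also lost with all 20 housekeeping genes (0.282), without the filter on low counts (0.133), without animals 7 and 8 (0.155) and without animal 2, 7, 8, 11 or 12 (edgeR adjusted p between 0.0545 and 0.0809). The family members C3 and Hc averaged 11.6 and 4.0 raw counts and were not tested. Of the 10 proteases on the panel only Ctss, the lysosomal cathepsin S, was tested. It rose by 0.66 ± 0.11 (SE) on the log2 scale in 10 of 10 animals (edgeR adjusted p = 0.0011), and its call was lost with median centring (0.21, 0.0717) and turned to -0.23 with positive control scaling. Both other protease inhibitors on the panel, Serpinb2 and Serping1, averaged 3.45 and 5.65 raw counts.

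In the list of the IL-6 family, STAT3 and C/EBP, 3 of 7 tested genes rose and 0 fell, near the 47.2% of all tested genes called higher. Their median log2 fold change was 0.29, against 0.30 for all tested genes. Among those that rose were Stat3 at 0.57 ± 0.13 (SE, edgeR adjusted p = 0.00454) and Il6st, the shared receptor subunit gp130, at 0.52 ± 0.15 (SE, 0.0123). With positive control scaling both turned negative, and with median centring both calls were lost. Stat3 also lost its call with DESeq2's size factors (0.25, edgeR adjusted p = 0.0528), and Il6st did so with these size factors (0.21, 0.167), with TMM (0.24, 0.128) and without animals 7 and 8 (0.37, 0.0791). The kinases Jak2 (0.10 ± 0.08 SE, edgeR adjusted p = 0.269) and Tyk2 (0.20 ± 0.22 SE, 0.454), the feedback inhibitor Socs1 (0.29 ± 0.18 SE, 0.160) and the transcription factor Cebpb (0.01 ± 0.12 SE, 0.950) did not pass. The ligand Il6 averaged 4.70 raw counts. Over the 10 animals, r with A2m was 0.95 for Stat3 and 0.82 for Il6st, and 0.02 for Jak2 and for Cebpb, which with TMM scaling stood at -0.71 and -0.30. With Anxa1, r was 0.92 for Stat3, 0.91 for Il6st, 0.31 for Jak2 and 0.36 for Cebpb, the last 2 at -0.49 and 0.01 with TMM scaling. Of 5 other acute-phase proteins on the panel, Clu was tested and rose by 0.83 ± 0.18 (SE) on the log2 scale in 9 of 10 animals (edgeR adjusted p = 0.0033), with -0.08 under positive control scaling. The other 4, Crp, Saa1, Lcn2 and Lbp, averaged 2.85 to 4.0 raw counts.

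Markers of several cell types differed between the hemispheres. Their counts, with housekeeping scaling, stand beside 47.2% of all tested genes called higher and 10.4% called lower. With median centring 40 of all tested genes were called higher and 71 lower, in place of 91 and 20. Marker calls under other scalings are not given. All 5 tested of the 9 microglia and macrophage markers on the panel rose, and their summed level ran from 278 to 1822 scaled counts ipsilaterally against 230 to 324 contralaterally. All 3 tested of 4 fibroblast, meningeal and mural cell markers rose (196 to 2654 against 110 to 276), as did all 4 tested of 8 endothelial markers (180 to 478 against 185 to 330). Of the 2 genes of the astrocyte list on the panel only Vim was tested, and it rose (sum 17.8 to 346 against 15.8 to 33.6). The rise of Vim alone is not read as one of astrocytes. All 3 neuronal markers fell (1609 to 3896 against 3003 to 4237). Defining markers lay at background: Itgam averaged 2.10, Cx3cr1 3.45, Kdr 2.60, Vwf 2.95 and S100b 2.40 raw counts. None of the 8 neutrophil markers was tested, and their sum was 42.2 to 180 ipsilaterally against 16.4 to 78.8 contralaterally, while 1 of 11 T and NK cell markers was (49.0 to 163 against 24.8 to 140, Cd3e did not pass, edgeR adjusted p = 0.409). None of 6 B and plasma cell markers (16.8 to 45 against 8.91 to 56.3) was tested and no oligodendrocyte marker was on the panel. Also not tested was Foxj1, the single marker of choroid plexus and ependyma (0.811 to 3.58 against 0.470 to 2.25). The untested markers of neutrophils, lymphoid cells and ependyma averaged at most 17.8 raw counts. The highest single negative control count was 18, and the mean of these controls per library ran from 3 to 7.25. The 17.8 belongs to Ncf4, with 25.8 ± 15.5 scaled counts ipsilaterally against 9.03 ± 1.77 contralaterally (SD, n = 10 each). Ncf4 was higher ipsilaterally in 9 of 10 animals, and the other neutrophil markers in 5 to 8 of 10. Scaled negative controls averaged 6.67 ipsilaterally against 4.68 contralaterally, and the part of background in these sums was not tested. The r of markers with each of the pair is given over the 10 animals. For Col3a1, Col1a1 and Fn1, r was 0.85, 0.87 and 0.83 with Anxa1 and 0.58, 0.66 and 0.64 with A2m. For Lyz2 and Cdh5 it was 0.92 and 0.94 with Anxa1 and 0.76 and 0.76 with A2m. The other tested endothelial markers, Tek, Tie1 and Abcb1a, had r of 0.45, 0.64 and 0.41 with Anxa1. Their r with A2m was 0.29, 0.60 and 0.45. For Cd68, r was 0.81 with Anxa1 and 0.91 with A2m. Mrc1, Ptprc and Fcer1g had r of 0.92, 0.87 and 0.82 with Anxa1 and 0.81, 0.81 and 0.87 with A2m. Vim had 0.91 and 0.85 in that order, and Cd3e -0.19 and -0.21. The neuronal markers Nefl, Cyfip2 and Mpped1 had -0.55, -0.90 and -0.85 with Anxa1 and -0.62, -0.78 and -0.87 with A2m. These differences in r were not tested. The part of any cell type in the counts of Anxa1 or A2m was not tested.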

How the data were processed

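Values are whole-number probe counts from the nCounter Digital Analyzer, which the authors handled in nSolver and deposited as a matrix, per the labels' protocols (the version is not given there). The series design text describes normalization to controls and housekeeping genes, but library totals, positive controls and unsubtracted negative controls show that the deposited counts are raw, and they were treated so. A second deposited table repeats the counts in 20 of 20 columns under another animal number. Hemispheres and all 10 pairs are the same, and animal numbers here follow the matrix headers.

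Housekeeping genes (20) were recognised as the separate alphabetical block before the controls, and the 17 with a mean count of at least 20 gave each library's factor as their geometric mean. Tests took in the 193 of 750 genes whose raw counts averaged 20 or more, using edgeR 4.0.16 in R 4.3.3, by the two-sided quasi-likelihood test with Benjamini-Hochberg adjustment and a threshold of 0.05. The SE is the log2 fold change divided by the square root of F. The animal was a block, since the titles give both samples of an animal 1 number. Within animals, residual correlations between both libraries ran from -0.21 to 0.50 and were above 0.1 in 5 of 10 animals. Only in animals 10 and 11 was the contralateral library most correlated with the ipsilateral one that of the same animal. The fit was tested on simulated counts with the same dispersion for every gene and no animal effect. That simulation does not stand for the unequal spread between genes and hemispheres in these data. Correlations used scipy 1.17.1 (exact permutations, or 100000 resamples for 10 libraries, two-sided). Where sorted values left a gap over 1 log2 unit, a correlation was tested only within a cluster of at least 6 libraries.

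Named genes are Anxa1 and A2m, the 6 genes with the highest and 3 with the lowest r to each, and up to 6 tested members of each of 7 pathway lists, with direct partners named at background. One such gene is not reported here. The 10 marker lists are given by counts and sums. The members and lists were chosen with earlier results of these data known. Each animal is 1 replicate.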

Additional observations from a re-analysis of the deposited data

Results flagged for a closer look

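For 27 named genes the most extreme library of each hemisphere was set against the nearest other one, in 54 groups of 10 libraries. By chance about 1 in 20 groups is picked out this way, 2.7 of the 54, and 2 were. Neither concerns Anxa1 or A2m, whose low ipsilateral libraries (animals 3, 5 and 10) come as 3 together. Abca1 in contralateral animal 6 stood at 463 scaled counts, with the next library at 348 and a group median of 325 (gap 0.552 of the group's log2 range). Jak2 in ipsilateral animal 8 stood at 187 scaled counts, with the next library at 150 and a median of 137 (gap 0.512).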

How the results depend on the processing

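The fitted log2 fold changes of Anxa1 and A2m and their mean paired differences kept their sign under every alternative run. They moved by less than the SD between animals. Fitted values moved most with positive control scaling, to 1.53 ± 0.46 for Anxa1 and 1.39 ± 0.48 for A2m (SE). These moves were larger than the SE. The mean paired difference ran from 2.17 to 2.71 for Anxa1 and from 1.89 to 2.50 for A2m with 1 animal left out, and was 2.68 and 2.32 in that order after background subtraction. Without the replicate block the fitted values were 2.98 and 3.02, and 13 genes in place of 20 were called lower. No pathway gene named here changed its call with the block left out. Counts of called genes depended on the scaling. With positive control scaling 9 genes were called in all, 3 higher and 6 lower, in place of 111, 91 and 20, and 0 of the pathway genes either way. Genes called higher and lower numbered 40 and 71 with median centring, 58 and 47 with TMM, 56 and 50 with DESeq2's size factors. Without Gusb 12 were called lower, and without the filter on low counts 9. Without animals 7 and 8, chosen after seeing the data, 61 were called, 58 higher and 3 lower, and 5 and 0 of the pathway genes. Leaving out 1 animal gave 84 to 125 calls, 73 to 104 higher and 9 (without animal 11) to 23 lower. Of the pathway genes, median centring called 2 higher and 4 lower, and DESeq2's size factors 4 and 3. The cause of these moves was not tested.

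Signs of small changes turned. Cebpb was -0.27 with TMM, -0.30 with DESeq2's size factors, -0.44 with median centring, -0.10 with all 20 housekeeping genes, -0.88 with positive control scaling and -0.020 without animals 7 and 8, and ran from -0.043 to 0.083 with 1 animal left out. Under the first 5 of these settings in that order Jak2 was -0.18, -0.21, -0.35, -0.012 and -0.81. With TMM, DESeq2's size factors, median centring and positive control scaling, Lrp1 was -0.070, -0.10, -0.24 and -0.69, and Tyk2 was -0.076, -0.11, -0.25 and -0.75. Socs1 was -0.027, -0.16 and -0.66 with the last 3 of these. With positive control scaling Clu was -0.080, Ctss -0.23, Il6st -0.39 and Stat3 -0.35. The correlation of Anxa1 with A2m moved to 0.81 ipsilaterally and to -0.32 contralaterally without the 2 farthest libraries. Ipsilaterally r was 0.36 with TMM and 0.42 with median centring (n = 7). For the hemisphere differences these scalings left a cluster large enough for a correlation. With TMM r was 0.68 (n = 6, exact permutation p = 0.119). With median centring r was 0.76 (n = 7, exact permutation p = 0.044) and Spearman's rho 0.71 (exact permutation p = 0.088), all unadjusted. Low counts limit the contralateral values of Anxa1, 2 of which did not exceed the highest negative control.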

Other observations

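Some probes of both pathways lay too low to be tested, and their values are given without a test. Cmklr1, a receptor for chemerin and resolvin E1, averaged 9.25 ± 6.32 scaled counts ipsilaterally against 2.71 ± 1.66 contralaterally (SD, n = 10 each) and was higher in 9 of 10 animals. Socs3, a feedback inhibitor of gp130 signalling, averaged 10.8 ± 6.1 against 5.47 ± 3.08 scaled counts and was higher in 8 of 10 animals, and the receptor subunit Il6ra averaged 13.4 ± 6.5 against 6.39 ± 3.2, also in 8 of 10. C3 averaged 13.4 ± 5.3 against 7.81 ± 2.34 scaled counts, higher in 9 of 10 animals. Fpr2 averaged 3.06 ± 2.53 against 1.64 ± 1.17 scaled counts. The probes named so far all averaged higher ipsilaterally and are a choice from the untested ones. Of the others on these lists, S100a8, S100b, Lif and Elane were higher in 5 of 10 animals and Mmp9 in 4 of 10. The negative controls, scaled in the same way, averaged 6.67 ± 2.12 ipsilaterally against 4.68 ± 2.63 contralaterally, so the background itself was higher on the injured side after scaling. The part of this in the values above was not tested.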
